A study of Mus musculus with 32 samples.

Results

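The *Bex* genes (brain-expressed X-linked) are a small family of mammalian genes, and 4 of them, *Bex1*, *Bex2*, *Bex3* and *Bex4*, are described here out of 53558 genes counted in mouse lung tumors. They were chosen by name, with the knowledge that *Bex2* and *Bex4* were low in tumors without *Lkb1* (*Stk11*) and higher where *Lkb1* had been switched back on. The level of the family in non-restored tumors against *KT* tumors and against restored tumors is therefore given as a description, with no test. The data are bulk RNA-seq libraries of neoplastic cells sorted from mouse lung tumors, 32 libraries in all. All mice carried *KrasLSL-G12D* and *Rosa26LSL-tdTomato* (*KT*), and tumors were started with lentiviral Cre. Cells positive for CD45, CD31, F4/80 or Ter119 had been excluded in the sort.

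*KT* tumors (4 libraries, 2 from female and 2 from male mice) kept a working *Lkb1* and had no treatment. Non-restored tumors (10 libraries, 7 female and 3 male) carried *Lkb1XTR/XTR*, an allele that Cre traps in an inactive form. Of these, 6 also carried *FLPo-ERT2* and were given vehicle, and 4 lacked *FLPo-ERT2* and were given tamoxifen. Restored tumors (7 libraries, all female) carried *Lkb1XTR/XTR* and *FLPo-ERT2*, and tamoxifen released the trap. These groups were taken 24 to 27 weeks after tumor initiation, and the treated mice had received 2 weeks of treatment with tamoxifen doses of 4 mg. The Trp53-deficient tumors carried *Trp53flox/flox* as well and were taken 16 to 19 weeks after initiation, so *Trp53* state and tumor age cannot be told apart. The non-restored Trp53-deficient group held 7 libraries from 4 animals by title, summed here by animal. Of these, 1 female and 1 male carried *FLPo-ERT2* and were given vehicle, and 1 female and 1 male lacked it and were given tamoxifen. The restored Trp53-deficient group held 4 libraries, all female, with *FLPo-ERT2* and tamoxifen. Treatment of both groups lasted 2 weeks, with tamoxifen doses of 4 mg. By the study's own legends, the 10 non-restored and the 7 restored libraries came from a smaller number of mice, so some of them share a mouse. The labels do not say which, every library was taken as a replicate, and the standard errors and p-values of comparisons with these groups are therefore likely too small. The titles of these libraries all differ, so Trp53-deficient libraries with different titles may also share a mouse. In bulk samples, fewer cells expressing a gene and less RNA per cell cannot be told apart.

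BEX proteins are short, largely unstructured proteins, best known from the brain, where several members are abundant in neurons. *Bex3* (also called *Ngfrap1* or NADE) encodes a protein that binds the death domain of the neurotrophin receptor p75NTR, and the *Bex1* protein binds the same receptor. The family shares its stretch of the X chromosome with the related *Tceal* genes. In gliomas, *BEX1* and *BEX2* have been described as silenced.

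The sequences just upstream of the 4 genes are shown first, because they divide the family into other pairs than the coding sequences do. Each line holds the 250 bases before the annotated start of the gene, 5′ to 3′ on the strand of the gene, from RefSeq on GRCm38.p6. Capitals mark the longest stretch that is identical, base for base, to the upstream sequence of the partner gene.

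Bex1, chrX:136215514-136215763, minus strand: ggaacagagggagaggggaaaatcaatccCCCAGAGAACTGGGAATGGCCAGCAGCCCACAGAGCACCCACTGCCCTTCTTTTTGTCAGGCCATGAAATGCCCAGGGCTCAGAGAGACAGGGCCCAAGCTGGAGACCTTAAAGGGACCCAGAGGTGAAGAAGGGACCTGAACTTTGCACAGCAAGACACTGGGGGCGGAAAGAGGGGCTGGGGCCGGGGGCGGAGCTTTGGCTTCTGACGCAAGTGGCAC
Bex4, chrX:136138746-136138995, plus strand: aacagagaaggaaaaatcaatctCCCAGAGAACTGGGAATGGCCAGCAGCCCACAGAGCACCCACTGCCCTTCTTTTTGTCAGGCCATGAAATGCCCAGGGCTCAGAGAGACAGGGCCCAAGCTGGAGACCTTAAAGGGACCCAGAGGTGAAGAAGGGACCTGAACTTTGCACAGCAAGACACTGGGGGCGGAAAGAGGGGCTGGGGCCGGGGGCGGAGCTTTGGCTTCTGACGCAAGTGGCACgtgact
Bex2, chrX:136068237-136068486, minus strand: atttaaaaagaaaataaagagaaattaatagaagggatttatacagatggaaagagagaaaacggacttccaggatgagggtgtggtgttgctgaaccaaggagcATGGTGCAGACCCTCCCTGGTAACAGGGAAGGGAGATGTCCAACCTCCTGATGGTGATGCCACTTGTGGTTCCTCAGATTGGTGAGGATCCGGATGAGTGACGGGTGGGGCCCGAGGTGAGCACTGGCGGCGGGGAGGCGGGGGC
Bex3, chrX:136270003-136270252, plus strand: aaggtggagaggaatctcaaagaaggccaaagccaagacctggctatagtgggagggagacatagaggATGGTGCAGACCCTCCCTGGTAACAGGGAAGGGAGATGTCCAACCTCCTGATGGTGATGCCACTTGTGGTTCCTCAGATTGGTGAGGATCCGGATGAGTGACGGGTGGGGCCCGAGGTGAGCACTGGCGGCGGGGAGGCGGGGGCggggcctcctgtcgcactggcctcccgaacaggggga

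*Bex1* and *Bex4* shared 221 consecutive bases, and a local alignment was 98.75% identical over 240 columns. *Bex2* and *Bex3* shared 145 consecutive bases, with 99.33% identity over 149 columns. No alignment of the other 4 pairs ran past 30 columns, and the longest run of identical bases in them was 9. The coding sequences paired differently. Those of *Bex1* (128 codons) and *Bex2* (129 codons) were 91.47% identical, and the other 5 pairs, which include *Bex3* (124 codons) and *Bex4* (118 codons), lay between 54.01% and 55.38%. Each gene has 3 exons, with the coding sequence in exon 3. The near-identical stretches of the transcripts followed the same division. *Bex1* and *Bex4* shared 265 bases at 98.87% identity and *Bex2* and *Bex3* shared 222 bases at 99.55%, both at the 5′ end, whereas *Bex1* and *Bex2* shared 452 bases at 92.26% around the coding exon.

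Short motifs were searched on both strands of the 250 upstream bases. TTGCNNAA, a form of the C/EBP motif, occurred once in *Bex2* (as TTGCTGAA, 162 bases before the start) and in none of the other 3, while 9.56% of 32851 mouse promoters of the same length held it. TTGCGTCA, a joined C/EBP and CRE motif picked after the sequences had been seen, lay in *Bex1* and *Bex4* (as TGACGCAA, from 15 and 21 bases before the start, within the capitals) and in 0.438% of all promoters. The CRE core TGACG occurred once in each of the 4 genes and in 17.8% of promoters. In *Bex1* and *Bex4* it is the same stretch as the joined motif. CAAGTG, which NKX2-1 can bind, also occurred in all 4 genes and in 11.6% of promoters, and in *Bex1* and *Bex4* it overlaps the joined motif. GGGCGG, a core of SP and KLF sites, had 2 matches in *Bex1*, 2 in *Bex4*, 1 in *Bex3* and 0 in *Bex2*, and 32.7% of promoters held it. CACGTG, the E-box, lay in the window of *Bex4* alone and in 6.02% of promoters, and the CRE palindrome TGACGTCA (1.55% of promoters) in none of the 4. In *Bex1* and *Bex2* the shared stretch runs up to the annotated start, and bases past the start were not searched. The *Bex1* window ends in CAC, the first letters of the E-box, and the *Bex2* window in GGGC, the first letters of GGGCGG. These are matches of letters, and binding was not measured.

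The genes lie within 205.4 kb of the X chromosome (GRCm38, GENCODE annotation). *Bex2* (chrX:136066564-136068236) and *Bex1* (chrX:136213972-136215513) are on the minus strand, and *Bex4* (chrX:136138996-136140443) and *Bex3* (chrX:136270253-136271978) on the plus strand. Between *Bex2* and *Bex3* the annotation places 7 further genes. One of them, *Tceal7*, overlaps *Bex1* on the opposite strand. Strand-aware counting is not stated in the sources used here, so reads of *Bex1* and *Tceal7* cannot be told apart, but *Tceal7* was listed at 0 in all 21 *KT*, non-restored and restored libraries. A pair of pseudogenes, *Gm12245* and *Gm4322*, match the 3′ part of *Bex4* at 98.88% over 357 bases and 99.33% over 298 bases. RSEM divides reads between such copies in fractions. Fractional counts were given to *Bex4* in 12 of 32 libraries, to *Bex2* in 8, to *Bex1* in 7 and to *Bex3* in 1, with a highest posterior SD of 1.87 reads for *Bex4* and at most 0.59 reads for the other 3.

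**Figure D1:**
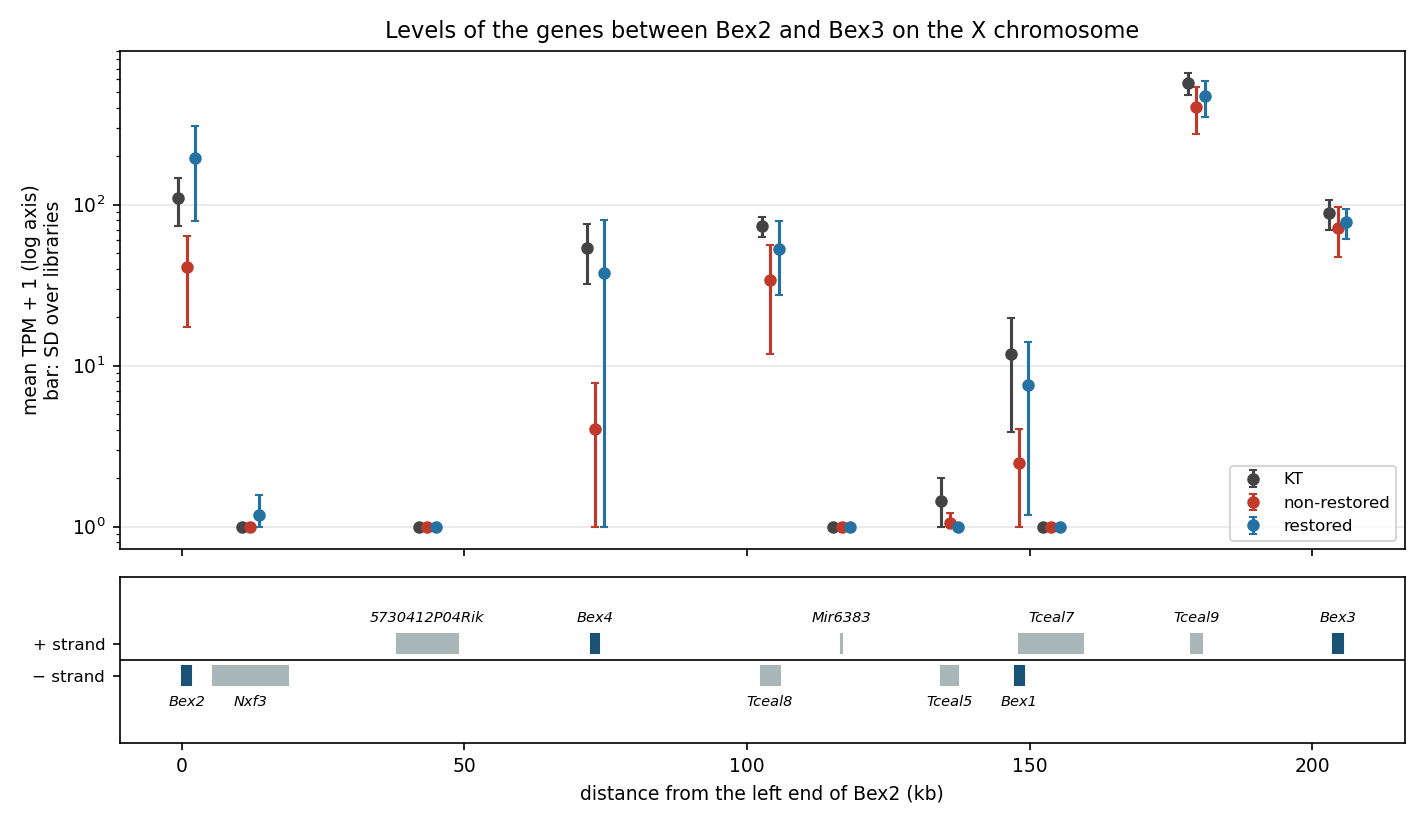
Upper panel: mean TPM + 1 (log axis) of each gene from *Bex2* to *Bex3* in *KT* (4), non-restored (10) and restored (7) libraries, with the SD as bars. Lower panel: the position of each gene in kb from the left end of *Bex2*, by strand, with the *Bex* genes dark. *Tceal9* had the highest level, and *Bex4* had the widest gap on the log axis between *KT* and non-restored tumors, 52.7 against 3.05 TPM.

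The level of a gene was compared between genes in TPM (transcript abundance, corrected for length and depth) and between libraries in CPM (reads scaled to the library total after TMM normalisation). Total expected counts per library ran from 1302482 to 5943951, and a *KT* library held 1871138 on average against 3533440 in restored tumors. *Lkb1* itself (*Stk11*) was 16.6 to 27.3 CPM in *KT*, 0 to 1.07 in non-restored and 11.6 to 22.4 in restored tumors. It was at 0 to 0.519 CPM in the animals of the Trp53-deficient non-restored group and at 8.50 to 14.9 CPM in the restored one. The highest single library of the former was at 0.772 CPM, so *Lkb1* matched the label in every library. *Trp53* was at 11.8 to 39.5 CPM in the 21 Trp53 wild-type libraries and at 0.548 to 6.51 CPM in the 11 Trp53-deficient ones. *Xist* was at 1492 CPM or more in all 24 female libraries and at 35.6 or less in all 8 male ones. A group of 18 genes of alveolar type II (ATII) cells summed to between 10340 and 161900 CPM per library or animal. Among markers of other cells, 6 fibroblast genes summed to between 2.00 and 1488 CPM, 7 immune genes to between 8.93 and 320.4 CPM, 4 endothelial genes to between 0.890 and 74.8 CPM, 4 airway genes to between 3.09 and 232.4 CPM, 3 red blood cell genes to at most 2.57 CPM and 5 nerve and Schwann cell genes to at most 5.70 CPM. The 4 mesothelial genes summed to at most 305.6 CPM, nearly all of it from *Msln* (mesothelin), and the other 3 together reached at most 4.07 CPM.

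*Bex2* and *Bex3* were the more abundant members and *Bex1* the rarest. In *KT* tumors the mean level was 109.2 TPM ± 36.7 (SD, n = 4) for *Bex2*, 87.3 ± 19.1 for *Bex3*, 52.7 ± 21.8 for *Bex4* and 10.9 ± 8.01 for *Bex1*. In non-restored tumors it was 39.7 TPM ± 23.4 (SD, n = 10) for *Bex2*, 71.0 ± 24.8 for *Bex3*, 3.05 ± 3.74 for *Bex4* and 1.47 ± 1.56 for *Bex1*. In restored tumors it was 193.7 TPM ± 115.6 (SD, n = 7) for *Bex2*, 76.9 ± 16.7 for *Bex3*, 36.9 ± 42.4 for *Bex4* and 6.61 ± 6.43 for *Bex1*. *Bex2* thus stood above *Bex3* in *KT* and restored tumors by mean TPM and below it in non-restored tumors, whereas *Bex1* was the lowest in each of the 3 groups. *Bex6*, the remaining mouse member in the files, was listed at 0 in all 5 groups.

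**Figure D2:**
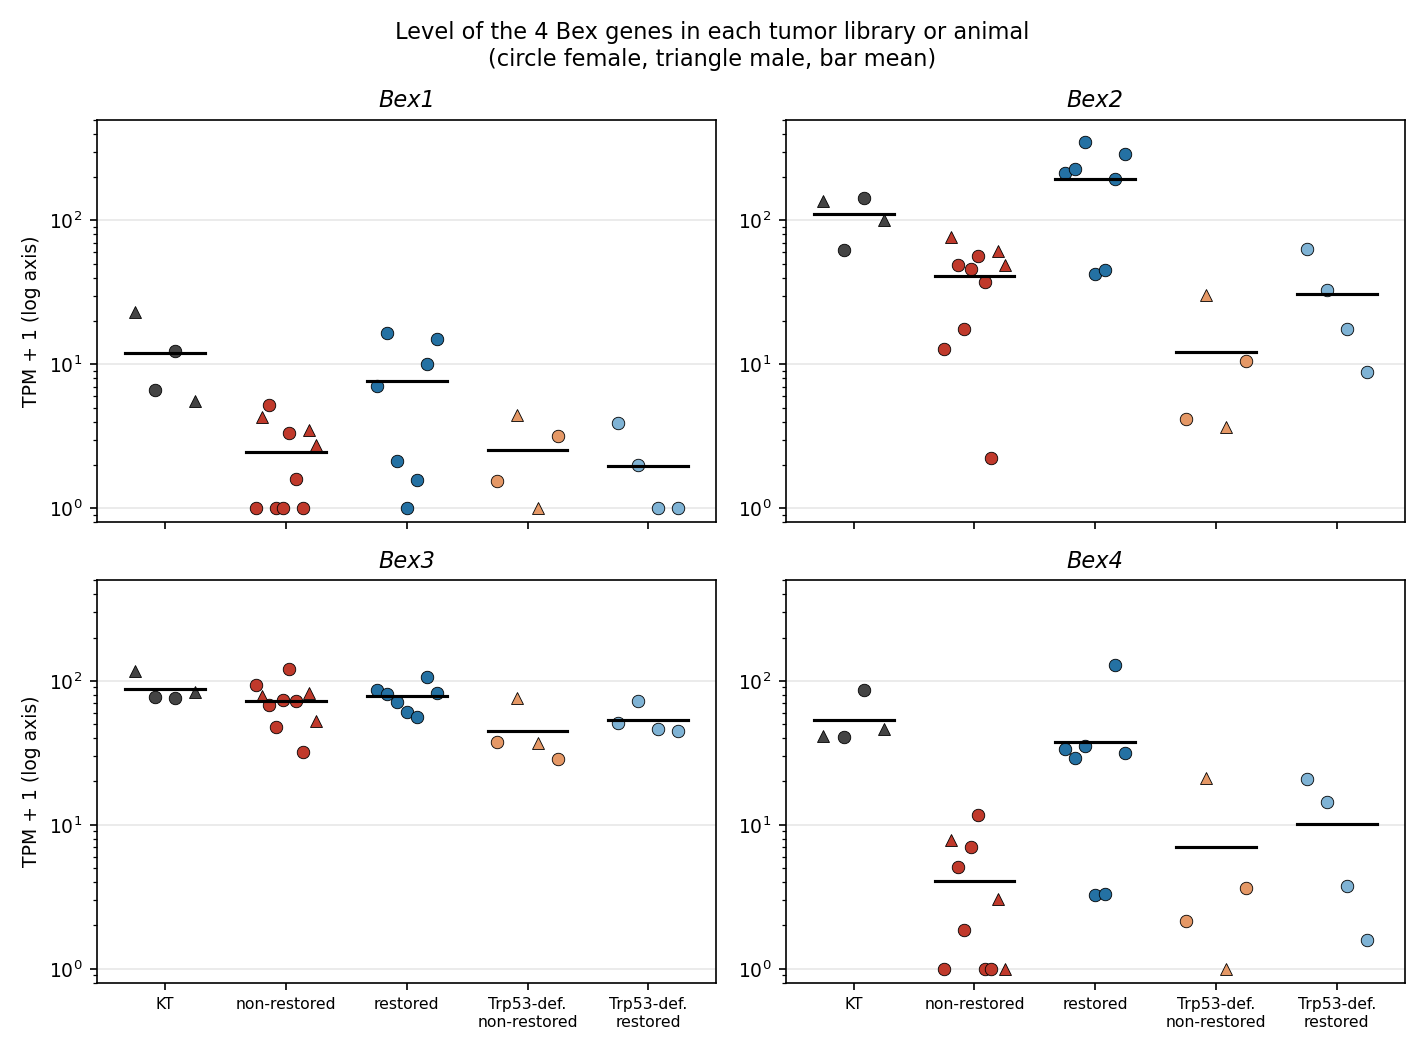
TPM + 1 (log axis) of *Bex1*, *Bex2*, *Bex3* and *Bex4*, a panel each, in every library (every animal for the Trp53-deficient non-restored group), by group. Circles are female, triangles male and the bar is the mean. Mean *Bex3* lay between 71.0 and 87.3 TPM in the first 3 groups and at 43.7 and 52.6 TPM in the Trp53-deficient ones, and in the restored group *Bex2* and *Bex4* each had 2 low libraries, at 41.4 and 44.0 TPM and at 2.28 and 2.33 TPM.

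*Bex4* had the largest fold differences of the 4 members between non-restored tumors and both other groups. The 4 *KT* libraries stood at 21.2, 21.6, 45.2 and 23.5 CPM, from 26 to 111.3 reads each. In the 10 non-restored libraries the lowest was 0, the median 0.70 and the highest 5.01 CPM, and 4 libraries held no read. No non-restored library reached the lowest *KT* library. The 7 restored libraries, in order of replicate number, were at 16.7, 15.1, 18.4, 0.98, 1.13, 62.0 and 15.7 CPM. Thus 5 of 7 lay above every non-restored library, and replicates 4 and 5, with 4 and 5 reads, lay inside the non-restored range. Non-restored against *KT*, the fitted log2 fold change was -4.24 (SE 0.85), and restored against non-restored it was 3.64 (SE 0.77), a 12.5-fold difference. Leaving out restored replicate 6, the highest, gave 2.91 for the latter, and leaving out 1 library gave -4.89 (without non-restored replicate 6) to -3.90 (without *KT* replicate 3) for the former. With the reads of *Gm12245* and *Gm4322* added to *Bex4*, a step chosen after the data had been seen, the values were -4.43 and 3.80. *Gm12245* had a mean of 2.73 CPM in *KT*, 0.0218 in non-restored and 1.83 in restored tumors, and *Gm4322* was listed at 0 in all 10 non-restored libraries.

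*Bex2*, the member whose coding sequence is nearest to that of *Bex1*, had many more reads. The *KT* libraries were at 79.4, 36.5, 82.6 and 56.6 CPM. The non-restored libraries ran from 0.70 through a median of 22.7 to 39.4 CPM, with replicate 8 at the bottom on 3 reads. Of the 10, 9 were below every *KT* library and 1 (39.4) was above the lowest of them. The restored libraries were at 121.5, 134.9, 207.1, 19.7, 23.5, 103.3 and 162.7 CPM. As for *Bex4*, replicates 4 and 5 were low and inside the non-restored range, and the other 5 were above every non-restored and every *KT* library. The fit gave a log2 value of -1.65 (SE 0.59) in non-restored against *KT* tumors, whereas restored against non-restored tumors gave 2.43 (SE 0.51), a 5.38-fold difference.

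*Bex1* was near the limit of counting. The *KT* libraries were at 10.3, 2.49, 4.88 and 1.92 CPM, from 3 to 15.3 reads. In non-restored tumors 4 of 10 libraries held no read and the highest was at 1.72 CPM (5 reads), below every *KT* library. Restored tumors were at 2.57, 7.56, 0.38, 0, 0.23, 3.59 and 5.85 CPM, with 4 of 7 above all non-restored libraries. Replicates 4 and 5 were again the lowest, together with replicate 3. A count of 0 allows up to 3 reads by counting error alone, and no non-restored library held more than 5, so the fitted values (-2.98, SE 0.89, against *KT*; 2.23, SE 0.79, for restored against non-restored) rest on few reads. Without *KT* replicate 1, the highest, the first of these was -2.36.

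*Bex3*, which encodes the p75NTR partner, differed least. The *KT* libraries were at 63.0, 41.5, 42.7 and 44.1 CPM. The non-restored libraries ran from 15.4 through 34.3 to 55.1 CPM, and the restored libraries from 26.9 through 42.1 to 48.2 CPM, so these 3 groups overlapped. The fitted log2 difference from *KT* to non-restored tumors was -0.52 (SE 0.24), and from non-restored to restored tumors 0.21 (SE 0.20). Of all genes tested in these comparisons, 5.86% (non-restored against *KT*) and 1.87% (restored against non-restored) had an adjusted p under 0.05 with edgeR's quasi-likelihood test. Every restored library is from a female mouse and 3 of 10 non-restored libraries are from males. With female libraries alone the log2 fold changes for restored against non-restored were 2.64 for *Bex1*, 2.80 for *Bex2*, 0.21 for *Bex3* and 3.60 for *Bex4*. Against the tamoxifen arm alone, which holds 4 non-restored libraries treated like the restored ones but without *FLPo-ERT2*, they were 2.32, 2.32, 0.32 and 4.60.

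Restored and *KT* tumors were compared next, to see how far the level after restoration lay from that of tumors that never lost *Lkb1*. The rule did not use this contrast, but it chose *Bex2* and *Bex4* in these libraries, as lost in non-restored tumors and regained after restoration. For these members that choice can tilt the contrast toward no difference, so its p-values do not settle the question. None of the 4 members passed, beside 58 of 12636 genes (0.459%). *Bex2* was higher in restored tumors by mean, 110.4 CPM ± 69.1 (SD, n = 7) against 63.8 ± 21.5 (n = 4), and the fitted log2 fold change came to 0.78 (SE 0.66; adjusted p = 0.731 by edgeR). *Bex4* was at 18.6 CPM ± 20.5 against 27.9 ± 11.6, and 6 of 7 restored libraries were below every *KT* library (log2 fold change -0.60, SE 0.84, adjusted p = 0.864). For *Bex1* the log2 fold change was -0.75 with an SE of 0.89 (adjusted p = 0.827), and for *Bex3* it was -0.31 with an SE of 0.26 (adjusted p = 0.727). The *Bex4* value was -1.33 without restored replicate 6 and -0.25 without *KT* replicate 3, the *Bex1* value was -0.12 and the *Bex3* value -0.14 without *KT* replicate 1. With standard errors of up to 0.89, differences of the size of the *Bex2* and *Bex4* estimates could not be told from 0 in either direction. DESeq2 called 168 genes (1.33%) in this comparison and none of the members, and none had an unadjusted p under 0.05 with edgeR.

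**Figure D3:**
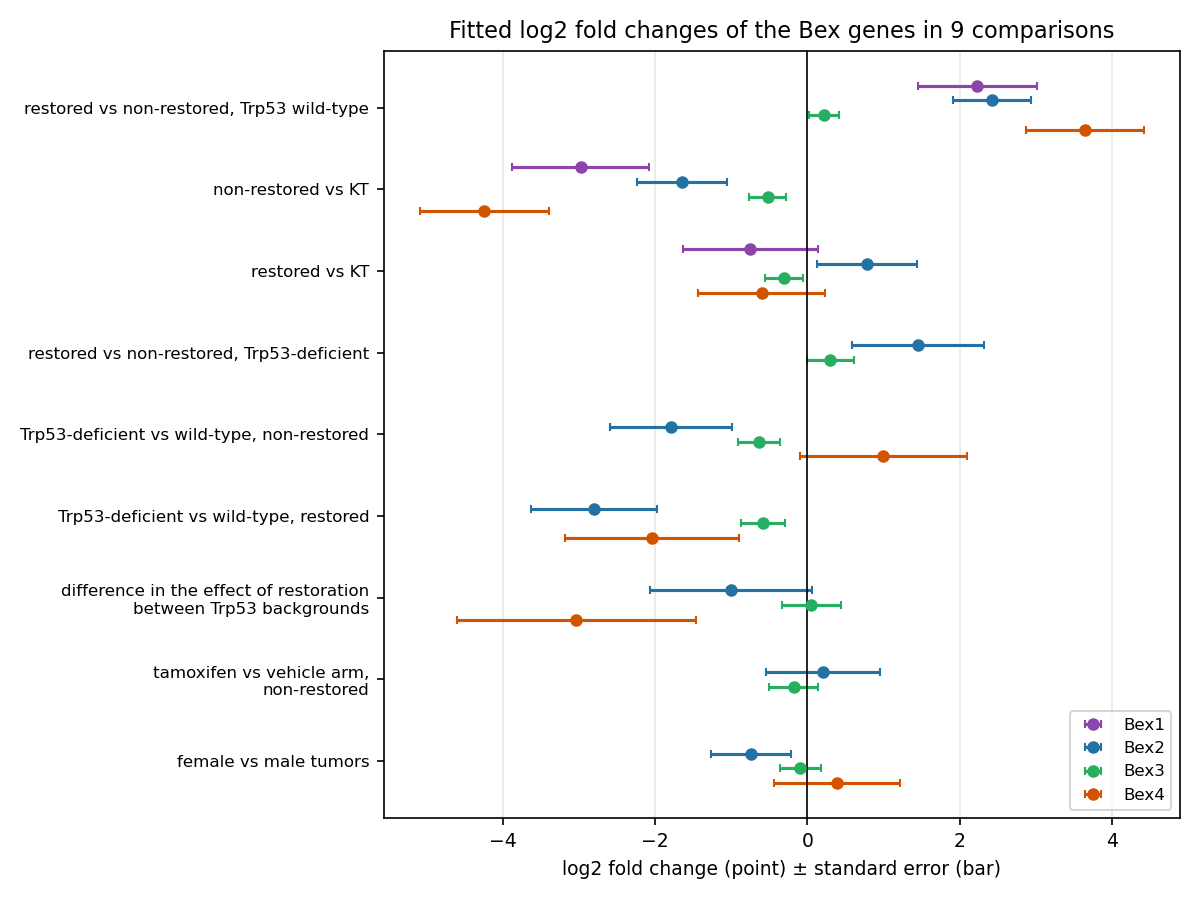
Fitted log2 fold changes (points) with their standard errors (bars) for the *Bex* genes that passed the filter on low counts, in 9 comparisons. The first 2 comparisons chose the family and carry no test. In the other 7 no member passed the adjusted threshold with edgeR. All but the comparison within Trp53-deficient tumors reuse libraries on which the family was chosen.

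The balance of *Bex4* to *Bex2* is given as a description. In *KT* tumors the level of *Bex4* in TPM was 29.9% to 65.1% of that of *Bex2* in the same library (median 53.0%). In non-restored tumors it was 0% to 19.2% (median 4.32%). In restored tumors the median was 10.6%, and replicate 6 (66.1%) alone was above 20%. In 4 of 7 restored libraries (1, 2, 3 and 7) *Bex2* was above every *KT* library while *Bex4* was below every one. In the Trp53-deficient tumors the share was 0% to 68.4% in non-restored animals and 7.51% to 42.3% in restored libraries.

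**Figure D4:**
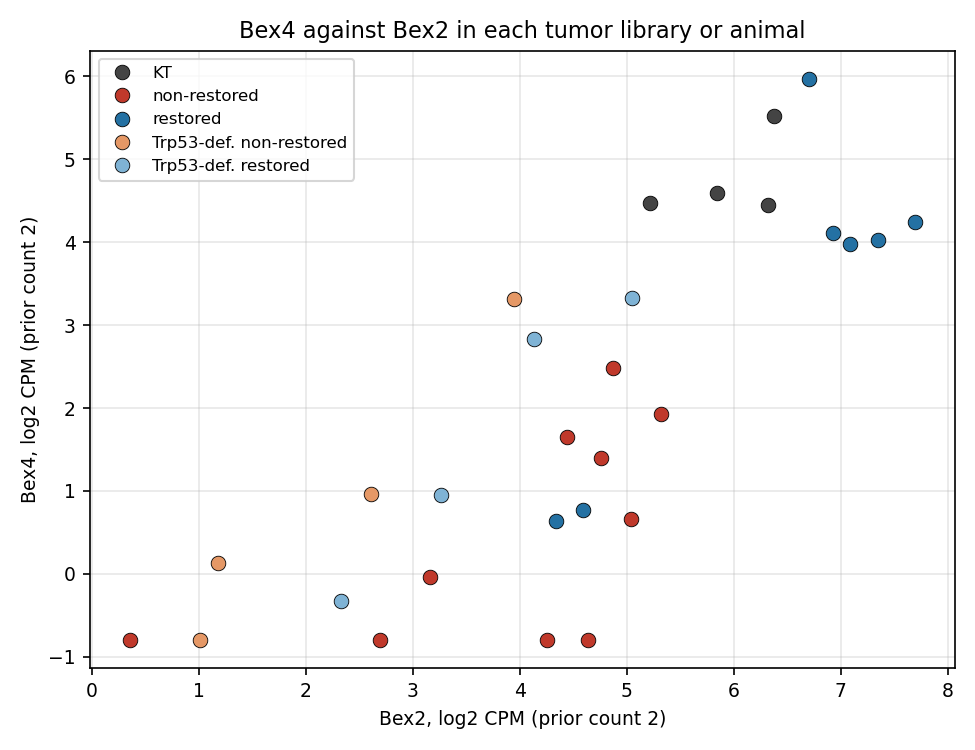
*Bex4* against *Bex2*, both as log2 CPM with a prior count of 2, in each library (each animal in the Trp53-deficient non-restored group), coloured by group. The *KT* points lie between restored replicates 4 and 5 and the other 5 restored points in *Bex2*, and 4 of these 5 lie below every *KT* point in *Bex4*. Restored replicates 4 and 5 lie among the non-restored points.

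The restored libraries 4 and 5 had *Lkb1* at 16.0 and 12.6 CPM, inside the range of the other 5 (11.6 to 22.4). They differed from these 5 in other sums as well. Their ATII genes summed to 57630 and 69950 CPM, against 133700 to 161900 CPM in the other 5. Their fibroblast genes summed to 29.8 and 26.4 CPM, against 165.6 to 251.5 CPM. *Msln* ran the other way, at 57.1 and 45.6 CPM in libraries 4 and 5 and at 0 to 2.68 CPM in the other 5. In *KT* libraries *Msln* was at 0 to 7.20 CPM, in non-restored ones at 4.41 to 248.6 CPM, and in the Trp53-deficient groups at 67.1 to 305.6 CPM (non-restored) and 39.5 to 153.3 CPM (restored). Non-restored replicate 8, the lowest for *Bex2* and *Bex3*, likewise had the lowest ATII sum (10340 CPM) and the lowest fibroblast sum (6.52 CPM) of its group, with *Msln* at 238.7 CPM. No fibroblast marker was at 0 throughout, and 5 of 6 in *KT* and 6 of 6 in the other groups had a group mean of 1 CPM or more. The *KT* libraries had high *Bex* levels with fibroblast sums of 13.8 to 79.2 CPM, under the median of the non-restored group (117.9 CPM). Their ATII sums ran from 67830 to 142700 CPM. The lowest of these, *KT* replicate 1, lay below restored replicate 5 but had *Bex2* at 79.4 CPM, against 23.5 CPM in the latter. Restored replicate 6, the highest for *Bex4*, had the highest immune sum of all libraries or animals (320.4 CPM). The immune sums of the other restored libraries ran from 20.6 to 165.8 CPM. Whether the mix of cells had a part in the *Bex* levels was not tested.

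**Figure D5:**
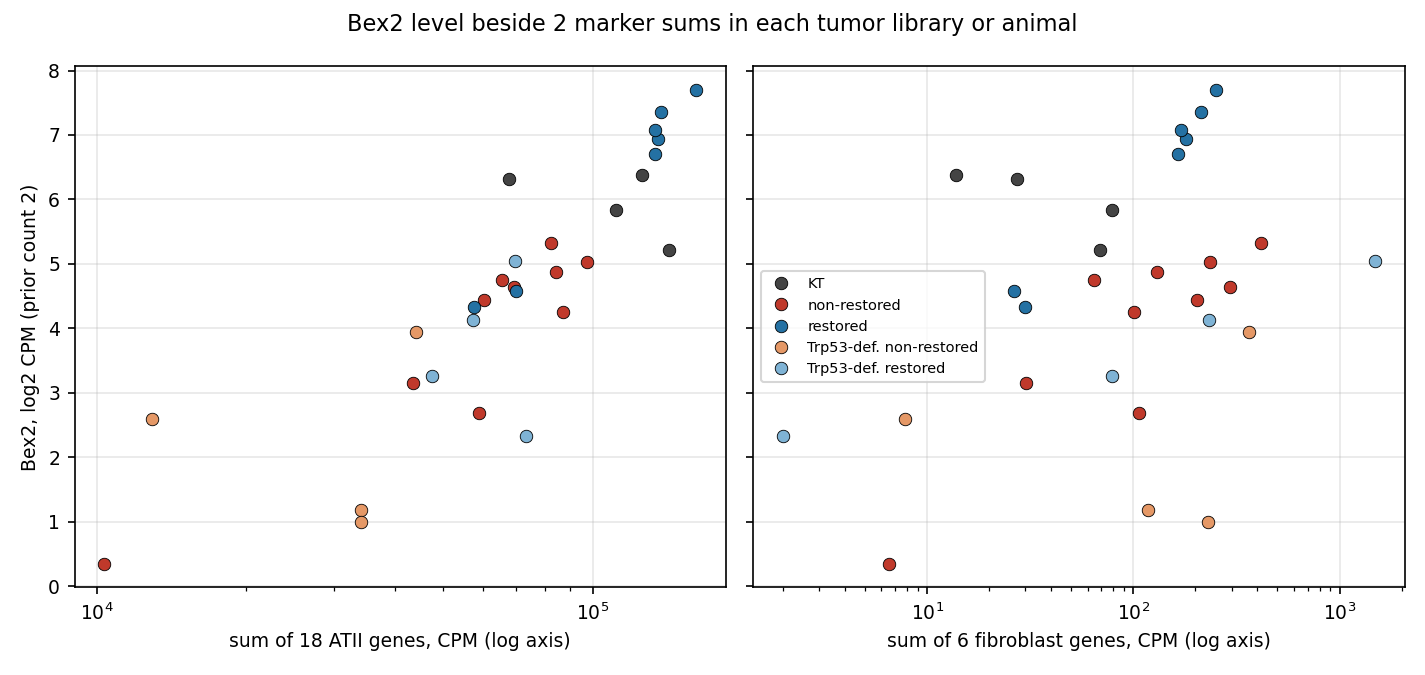
*Bex2* (log2 CPM, prior count 2) against the summed CPM (log axis) of 18 ATII genes (left) and of 6 fibroblast genes (right) in each library or animal, coloured by group. The 5 restored libraries with the highest *Bex2* have ATII sums of 133700 CPM or more, and the *KT* libraries combine high *Bex2* with low fibroblast sums. *KT* replicate 1 has high *Bex2* at an ATII sum of 67830 CPM.

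Within the 10 non-restored libraries, 14 relations were computed (6 pairs of members, and each member against both marker sums), with permutation p-values adjusted over the 14. *Bex2* rose with the ATII sum (Pearson r = 0.92, permutation p = 0.00214, adjusted p = 0.0283; Spearman rho = 0.75, permutation p = 0.0176, adjusted p = 0.0822). Without the 2 libraries farthest from the median sum, replicates 4 and 8, r was 0.60. Against the fibroblast sum r was 0.87 (permutation p = 0.00418, adjusted p = 0.0283; rho = 0.73, permutation p = 0.0205, adjusted p = 0.0822), and 0.45 without the same 2 libraries. *Bex3* against the ATII sum had r = 0.78 (permutation p = 0.00606, adjusted p = 0.0283; rho = 0.53, permutation p = 0.124, adjusted p = 0.226) and only 0.31 without them, so these relations rest largely on replicates 4 and 8, which also had the highest *Msln* of the group (248.6 and 238.7 CPM). *Bex1* and *Bex2*, which share most of their coding sequence, had r = 0.71 (permutation p = 0.00921, adjusted p = 0.0322; rho = 0.86, permutation p = 0.00257, adjusted p = 0.0360), and 0.68 without replicates 2 and 3. The other 5 relations with the marker sums had r from 0.40 to 0.61 (adjusted p 0.116 to 0.259 by permutation) and rho from 0.31 to 0.66 (adjusted p 0.13 to 0.378), with the lowest r for *Bex4*, 0.41 with the ATII and 0.40 with the fibroblast sum. The remaining 5 pairs of members had r from 0.45 to 0.66 (adjusted p 0.112 to 0.224 by permutation) and rho from 0.43 to 0.73 (adjusted p 0.0822 to 0.277). All of these points share the depth of their library. Some of the 10 libraries also share a mouse, which the permutations did not take into account, so these p-values are likely too small.

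In the Trp53-deficient tumors, which the rule did not use, restoration was measured again at an earlier age. None of the members passed, and neither did any other of 12518 genes with edgeR (0% called, 748 at an unadjusted p under 0.05), while DESeq2 called 23, and edgeR 3 in a fit of 25 libraries or animals with the wild-type groups. *Bex2* was at 32.5, 17.0, 9.05 and 4.45 CPM in the restored libraries. In the 4 non-restored animals it ranged from 1.43 to 14.9 CPM, and 2 of 4 restored libraries were above all of them. The log2 fold change was 1.45 (SE 0.87, unadjusted p = 0.132, adjusted p = 0.803 by edgeR), in the same direction as in the wild-type tumors, and 3 of 4 restored libraries were above the non-restored mean. Leaving out 1 library or animal gave 0.80 (without restored replicate 1) to 2.66 (without non-restored animal 2). *Bex3* was at 25.9 CPM ± 5.65 (SD, n = 4) against 21.3 ± 9.72 (n = 4), and the fitted log2 fold change came to 0.30 (SE 0.31, with an adjusted p of 0.869 by edgeR).

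*Bex4* and *Bex1* were too low for the filter in these tumors and were compared by exact two-sided permutation tests, whose smallest possible p is 0.0286 with 4 against 4. *Bex4* was at 9.48, 6.53, 1.36 and 0.22 CPM in restored libraries. Of the non-restored animals, animal 2, a male with 2 libraries, was at 9.35 CPM and the other 3 at 0 to 1.37 CPM. The groups overlapped (difference in mean log2 CPM 0.79, exact permutation p = 0.571). *Bex1* was at most 1.13 CPM in restored libraries and at most 1.38 CPM in non-restored animals (difference -0.34, exact permutation p = 0.657). In restored replicate 4, the lowest for *Bex2* and *Bex4*, the fibroblast genes summed to 2.00 CPM, the lowest of all libraries or animals. Its ATII sum was the highest of its group (73350 CPM).

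The Trp53-deficient tumors were then set against the wild-type ones of the same *Lkb1* state. The wild-type libraries are those on which *Bex2* and *Bex4* were chosen, as low without *Lkb1* and higher once it was restored. That choice can tilt these comparisons and the later test of the difference between *Trp53* states, and the p-values do not account for it. In restored tumors *Bex2* stood at 15.8 CPM ± 12.3 (SD, n = 4) against 110.4 ± 69.1 (n = 7), and 3 of 4 Trp53-deficient libraries were below every wild-type one. The log2 fold change of -2.80 (SE 0.83, unadjusted p = 0.00263) had an adjusted p of 0.138 with edgeR and 0.0264 with DESeq2, which called 216 genes (1.58%), so the call depends on the tool. *Bex3* was at 25.9 CPM ± 5.65 against 38.7 ± 8.37 (log2 fold change -0.58, SE 0.28, adjusted p = 0.324) and *Bex4* at 4.40 ± 4.36 against 18.6 ± 20.5 (-2.04, SE 1.15, adjusted p = 0.389, and -1.32 without wild-type restored replicate 6). With edgeR 51 of 13705 genes (0.372%) passed here and none of the members. *Bex1*, under the filter, was at 0.38 CPM ± 0.53 against 2.88 ± 2.97 (exact permutation p = 0.152).

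In non-restored tumors *Bex2* stood at 5.87 CPM ± 6.28 (SD, n = 4) against 20.6 ± 12.3 (n = 10), and all 4 animals were below the wild-type mean. The fitted log2 difference was -1.79 with an SE of 0.80 (adjusted p = 0.248 by edgeR), and -3.06 without animal 2. For *Bex3* it was -0.64 with an SE of 0.27 (adjusted p = 0.229), and -1.02 without animal 2. For *Bex4* it was 0.99 (SE 1.10, adjusted p = 0.657), which turned to -1.50 without animal 2. Called were 82 of 13705 genes (0.598%) and none of the members. Whether restoration acted differently in the 2 *Trp53* states was tested directly, and no member passed the adjusted threshold. The difference in log2 fold change was -1.01 (SE 1.06) for *Bex2*, 0.05 (SE 0.38) for *Bex3* and -3.03 (SE 1.57, unadjusted p = 0.0652) for *Bex4*, each with an adjusted p of 1 by edgeR, and 0 of 13705 genes passed (0%, with 424 at an unadjusted p under 0.05 and 0 by DESeq2). Without animal 2 the value for *Bex2* was 0.26, and over all settings that for *Bex4* ran from -3.69 to -0.54.

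Tamoxifen and sex were looked at apart from restoration. Among non-restored tumors, the 4 libraries given tamoxifen without *FLPo-ERT2* had *Bex2* at 22.7 CPM ± 17.0 (SD, n = 4), against 19.1 ± 9.67 (n = 6) with vehicle and *FLPo-ERT2* (log2 fold change 0.20, SE 0.75). *Bex3* was at 31.2 CPM ± 10.8 against 34.6 ± 12.5 (-0.18, SE 0.32). Both had an adjusted p of 1.00 by edgeR, and 0 of 11561 genes passed (0%, with 378 at an unadjusted p under 0.05 and 11 by DESeq2). *Bex4* was at 1.06 CPM ± 1.52 against 1.67 ± 1.96 (exact permutation p = 0.695). Treatment and *FLPo-ERT2* cannot be told apart in this comparison.

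Because the family is X-linked, female and male tumors were compared within *KT* and non-restored tumors. The log2 difference of female from male tumors was -0.74 for *Bex2* (SE 0.52, adjusted p = 0.786), -0.09 for *Bex3* (SE 0.27, adjusted p = 0.964) and 0.39 for *Bex4* (SE 0.82, adjusted p = 0.947), by edgeR. Of 11572 genes 6 passed (0.0518%), none of them a member. Within the non-restored tumors alone, the 3 males were at 24.3 to 39.4 CPM for *Bex2* and the 7 females at 0.70 to 28.7 CPM (exact permutation p = 0.05, one of 20 such tests of single genes and not adjusted). For *Bex3* the means were 33.5 CPM in females and 32.6 in males, and for *Bex4* 1.43 and 1.41 CPM.

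The genes around the family were read from lists chosen for it. Of 17 other genes of the BEX, TCEAL, GASP and ARMCX families, 8 passed the filter and 0 were called by edgeR in any of the 3 comparisons of *KT*, non-restored and restored tumors. An unadjusted p under 0.05 was reached by 1 of them between restored and non-restored tumors, by 3 between non-restored and *KT* tumors and by 1 between restored and *KT* tumors. Over all 12636 genes, 1913, 2626 and 1333 reached it in the same order, and edgeR called 1.87%, 5.86% and 0.459%. With 8 genes, 0 calls cannot be told from these shares. DESeq2 called 0, 1 and 0 of the 8 in the same order, beside 467, 1083 and 168 of all genes. The 1 gene was *Armcx4*, named after its values were seen, which was at 0 in all 4 *KT* libraries and at 4.41 CPM ± 5.33 (SD, n = 10) in non-restored tumors, with an edgeR adjusted p of 0.144. For restored against non-restored their median log2 fold change was 0.00 (4 above and 4 below 0), beside -0.01 over all 12636 genes. *Tceal8*, which lies between *Bex4* and *Bex1*, was at 63.8 CPM ± 9.63 in *KT*, 25.7 ± 17.2 in non-restored and 44.4 ± 23.1 in restored tumors (restored against non-restored: log2 fold change 0.79, SE 0.51, adjusted p = 0.497; non-restored against *KT*: -1.32, SE 0.59, adjusted p = 0.206, both by edgeR). *Tceal9*, between *Bex1* and *Bex3*, was at 347.3, 219.3 and 276.3 CPM in the same groups (adjusted p = 0.544 for restored against non-restored). The other genes of the interval were at or near 0. Of 379 other tested genes on the X chromosome, 6 were called higher and 2 lower in restored than in non-restored tumors (2.11%, beside 1.87% of all genes), with a median log2 fold change of 0.01. In non-restored against *KT* tumors 15 were called higher and 11 lower (6.86%, beside 5.86%), with a median of 0.09.

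Of 15 genes of the p75NTR pathway, 10 passed the filter and 0 were called in these 3 comparisons by edgeR. In the order above, 2, 4 and 0 of them had an unadjusted p under 0.05, beside 1913, 2626 and 1333 of all 12636 genes, and DESeq2 called 0 in each. With 10 genes, 0 calls cannot be told from the shares over all genes given above. The receptor gene *Ngfr* was at most 0.653 CPM in non-restored, 0.677 in restored and 0 in *KT* libraries. *Sort1*, which encodes the co-receptor sortilin, was at 257.3 CPM ± 91.0 in restored and 169.9 ± 57.9 in non-restored tumors (log2 fold change 0.60, SE 0.24, adjusted p = 0.223). *Maged1*, which encodes another p75NTR partner, was at 172.6 CPM ± 27.7 against 136.8 ± 37.6 (0.34, SE 0.18, adjusted p = 0.386).

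Of 17 neuronal and neuroendocrine genes only 2 passed the filter. *Ptprn*, which encodes a secretory granule protein, fell in restored against non-restored tumors (log2 fold change -3.54, SE 0.33, adjusted p = 4.57e-06 by edgeR) and rose in non-restored against *KT* (3.88, SE 0.45, adjusted p = 2.1e-05), in the direction opposite to *Bex2* and *Bex4*. All 18 ATII genes passed the filter. Restored against non-restored, 16 of 18 were above 0 with a median log2 fold change of 0.60, and *Lyz2*, which encodes lysozyme, was called (1.83, SE 0.44, adjusted p = 0.0313). That is 5.56% of the list, beside 1.87% of all genes. An unadjusted p under 0.05 with edgeR was reached by 10 of the 18, beside 1913 of all 12636 genes, and DESeq2 called 3 of the list. In non-restored against *KT*, 15 of 18 were below 0 with a median of -0.65, and *Lcn2* (-1.74, SE 0.31, adjusted p = 0.00159) and *Lyz2* (-1.73, SE 0.50, adjusted p = 0.0431) were called. That is 11.1% of the list, beside 5.86% of all genes. Here 8 of the 18 had an unadjusted p under 0.05, beside 2626 of all genes, and DESeq2 called 4 of the list. Several of these genes were shown by the study for the same libraries, and so their direction is not independent evidence.

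The genes most alike in pattern were ranked for each member by the Pearson correlation of log2 CPM over 29 libraries or animals of all 5 groups, after subtracting each group's mean, among 13273 genes. For *Bex2* they were *Ppargc1a*, a coactivator of mitochondrial genes (0.89), *Gzf1* (0.88), *Mllt6* (0.88), *Zfp354c* (0.87) and *Slc24a4* (0.84). For *Bex4* they were *Pygo1* (0.74), *Arxes2* (0.72), *Ifi30* (0.72), *6720464F23Rik* (0.71) and *Idh2* (0.70). For *Bex3* they were *Usp8* (0.84), *Wdr91* (0.84), *H2-DMb1* (0.83), its neighbour *Tceal9* (0.83) and *Ptgs1* (0.83). For *Bex1* they were *Eda* (0.81), *Gm43099* (0.72), *Msrb2* (0.70), *9130017K11Rik* (0.70) and *Zmat4* (0.70). These are descriptions with no test, over points that share library depth, and no gene stood in the first 5 of more than 1 member. Each r is among the highest of 13273 genes. None was recomputed without restored replicates 4 and 5 and non-restored replicate 8, which lie far from the rest of their groups in *Bex2*.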

How the data were processed

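RNA of neoplastic cells sorted from mouse lung tumors was measured in 32 libraries of 5 groups, taken from the labels. Per the labels and the study's methods, the authors aligned paired reads to mm10 with STAR 2.6.1d and deposited expected counts and TPM values per gene from RSEM 1.2.30, for each library separately. Tables of the authors' own comparisons (fold changes and p-values) were not used. RSEM divides reads that fit several genes. Strand-aware counting is not stated in the sources used here, and the annotation release is not stated.

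Expected counts were rounded to whole numbers. In the Trp53-deficient non-restored group 7 libraries were summed to 4 animals by title. Genes were filtered with filterByExpr, scaled by TMM and tested with edgeR 4.0.16 (quasi-likelihood test, R 4.3.3), with Benjamini-Hochberg adjustment over all genes tested and a threshold of 0.05. *KT*, non-restored and restored libraries shared a fit of 21 libraries, the comparisons between *Trp53* states one of 25 libraries or animals, and restoration in Trp53-deficient tumors was tested in those 2 groups alone. Log2 CPM used a prior count of 2. Members under the filter were compared by exact two-sided permutation tests. DESeq2 1.42.0 and other settings were alternatives. The steps were tested on simulated data.

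Upstream sequences came from RefSeq on GRCm38.p6, and gene positions and transcripts from a GENCODE annotation of GRCm38, in which 51844 of 53558 gene names had a single location. Transcripts were compared with blastn 2.17.0 (at least 75 bases and 90% identity). The members, the gene lists, the motifs and the tests were chosen with earlier results of these data known. Genes named outside the family were list members with an adjusted p under 0.05 (at most 6 per list and comparison), the 5 genes most alike to each member in pattern, and, chosen after their values were seen, the neighbours *Tceal8* and *Tceal9*, *Armcx4*, the 2 pseudogenes of *Bex4*, *Msln* and the p75NTR genes *Ngfr*, *Sort1* and *Maged1*. Intervals and floors cover counting error only.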

Additional observations from a re-analysis of the deposited data

Results flagged for a closer look

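Each of the 4 *Bex* genes was checked in each of the 5 groups for a library far from the others, by the gap to its nearest neighbour over the range of the group. Of 20 checks, 3 passed the 95% critical value, where chance gives about 1 in 20. *Bex2* in non-restored replicate 8 was the lowest of its group, at 0.35 log2 CPM (0.70 CPM, 3 reads). This library also had the lowest ATII sum (10340 CPM) and the lowest fibroblast sum (6.52 CPM) of its group. *Bex3* in *KT* replicate 1 was the highest of 4, at 5.99 log2 CPM (63.0 CPM). *Bex4* in *KT* replicate 3 was the highest of 4, at 5.52 log2 CPM (45.2 CPM), in the *KT* library with the lowest fibroblast sum (13.8 CPM). Restored replicates 4 and 5 were low together and so passed no such check.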

How the results depend on the processing

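For the 8 values of the members in the comparisons that chose them, which carry no test, 195 alternatives were run and all 195 kept the direction. The direction of *Bex2* and *Bex4* was part of the choice and the alternatives reuse the same libraries, so this count is no independent support. For 22 other values, 408 alternatives were run, of which 390 kept the direction and the side of the threshold, 17 turned the direction and 1 passed the threshold where the reported value had not. That one was *Bex2* in Trp53-deficient against wild-type restored tumors, -2.80 with DESeq2 (adjusted p = 0.0264; range over its alternatives 0.0264 to 0.284). Direction turned for *Bex2* between the tamoxifen and vehicle arms with sex as a covariate (-0.49) and for *Bex3* between female and male tumors in non-restored libraries alone (0.039). The other turns came from leaving out 1 library or animal, with these ranges: *Bex4* in Trp53-deficient against wild-type non-restored tumors -1.50 to 1.62 (negative without animal 2 alone), *Bex2* and *Bex3* in the difference between *Trp53* states -1.63 to 0.26 (positive without animal 2 alone) and -0.12 to 0.42, *Bex2* and *Bex3* between the arms -0.17 to 0.60 and -0.32 to 0.048, *Bex3* and *Bex4* between the sexes -0.23 to 0.014 and -0.012 to 0.77. None of these was past the threshold, and the cause was not tested. For restored against non-restored tumors, leave-one-out ranges were 2.05 to 2.56 for *Bex1*, 2.20 to 2.62 for *Bex2*, 0.12 to 0.33 for *Bex3* and 2.91 to 4.29 for *Bex4*.

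Counts of called genes moved more. DESeq2 called 467 genes against 236 for restored against non-restored, 168 against 58 for restored against *KT*, 23 against 0 in Trp53-deficient tumors, 419 against 82 and 216 against 51 between *Trp53* states (non-restored and restored), 50 against 6 between the sexes and 11 against 0 between the arms. The tamoxifen arm alone as control gave 50 for restored against non-restored, female libraries alone gave 132 against 741 between non-restored and *KT* tumors and 10 between restored and *KT* tumors, and sex as a covariate gave 22 in the latter. Leaving out 1 library gave 145 to 319 calls between restored and non-restored, 340 to 951 between non-restored and *KT* and 21 to 57 between restored and *KT* tumors, and 26 to 1450 between *Trp53* states in non-restored tumors, with 1450 without non-restored replicate 8. Same-numbered libraries of non-restored and restored tumors deviated from their group means with correlations of 0.055 to 0.483 (5 of 7 above 0.1), those with *KT* libraries with -0.051 to 0.123 (1 of 8 above 0.1), and 0 of 7 restored libraries correlated best with the non-restored library of their own number, so numbers were not taken as pairs. With the replicate number as a block in the fit, the pairing of numbers gave 270, 705 and 67 calls in these 3 comparisons, and log2 fold changes for restored against non-restored of 2.05 for *Bex1*, 2.20 for *Bex2*, 0.10 for *Bex3* and 3.17 for *Bex4*.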
